A study of Mus musculus with 2 samples.

Results

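Genes of the major histocompatibility complex (MHC) and of antigen presentation were described in the hearts of 2 female mice. The set held 44 genes: the 37 genes whose symbol starts with H2- and that have at least 1 protein-coding transcript, and B2m, Tap1, Tap2, Tapbp, Cd74, Ciita and Nlrc5. They were picked by name and not by any measured value, out of 21901 mouse genes with a protein-coding transcript and 55536 mouse genes in all. The annotation calls 3 of them, H2-Bl, H2-Ea-ps and H2-T10, polymorphic pseudogenes, genes that are intact in some mouse strains and broken in others. On chromosome 17, 40 of the 44 lie in or beside the mouse MHC, while B2m lies on chromosome 2, Nlrc5 on chromosome 8, Ciita on chromosome 16 and Cd74 on chromosome 18.

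The hearts came from B6CASTF1/J mice aged 36 days, the first-generation hybrid of the inbred strains C57BL/6J and CAST/EiJ, so that every cell carried 1 MHC haplotype of each parent. Total RNA, 300 ng per library and with ERCC spike-in RNAs added, was sequenced from the heart of animal 3 (replicate 1) and animal 4 (replicate 2). These 2 libraries form 1 group without treatment, so the data give levels and their spread and no contrast between conditions. Each library was quantified in 2 ways: a first quantification, a gene table from reads aligned to the transcriptome, and a second quantification, a transcript table from a transcript index, summed here per gene. Both used mm10, which was assembled from C57BL/6J, so transcripts of the CAST/EiJ haplotype were matched to another strain's sequence and no count was split by parent.

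Class I molecules pair a polymorphic heavy chain with beta 2 microglobulin and display peptides from inside the cell to CD8 T cells. Class II molecules pair an alpha with a beta chain, display peptides from ingested material to CD4 T cells and are made mainly by antigen-presenting cells. In heart tissue, macrophages, dendritic cells, B cells and endothelial cells are the known main sources of these transcripts, beside cardiomyocytes with low class I.

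The class I heavy chain genes arose by duplication, and the second coding exon, which encodes the alpha 1 domain on a side of the peptide-binding groove, shows how near their sequences lie. The first 120 bases of this exon are printed for the genes on which the results below turn, read from the GENCODE M21 transcripts on mm10, 5′ to 3′ on the coding strand, with bases that differ from H2-K1 in capitals.
H2-K1 (chr17:33999884-34000003, minus strand): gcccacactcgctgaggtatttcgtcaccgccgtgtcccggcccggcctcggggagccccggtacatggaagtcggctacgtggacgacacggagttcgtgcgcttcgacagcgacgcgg
H2-D1 (chr17:35263379-35263498, plus strand): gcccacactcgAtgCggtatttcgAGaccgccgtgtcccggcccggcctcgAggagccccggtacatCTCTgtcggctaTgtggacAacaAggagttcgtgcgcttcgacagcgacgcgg
H2-Q6 (chr17:35425108-35425227, plus strand): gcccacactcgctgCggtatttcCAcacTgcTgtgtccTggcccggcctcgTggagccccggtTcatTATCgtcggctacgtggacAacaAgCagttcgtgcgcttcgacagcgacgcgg
H2-Q7 (chr17:35439452-35439571, plus strand): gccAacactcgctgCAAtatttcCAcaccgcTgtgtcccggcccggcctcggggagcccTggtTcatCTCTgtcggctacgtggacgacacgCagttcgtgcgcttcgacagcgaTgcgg
H2-Q10 (chr17:35470376-35470495, plus strand): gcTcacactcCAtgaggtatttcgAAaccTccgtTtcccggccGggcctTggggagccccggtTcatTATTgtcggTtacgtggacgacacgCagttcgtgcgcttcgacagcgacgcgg
H2-T23 (chr17:36032303-36032422, minus strand): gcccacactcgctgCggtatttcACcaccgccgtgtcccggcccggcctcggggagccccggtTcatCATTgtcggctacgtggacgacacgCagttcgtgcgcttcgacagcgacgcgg
H2-M3 (chr17:37270522-37270641, plus strand): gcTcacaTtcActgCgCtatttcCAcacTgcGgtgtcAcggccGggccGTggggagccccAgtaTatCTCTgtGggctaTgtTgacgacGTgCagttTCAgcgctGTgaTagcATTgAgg
Over the whole exon of 270 bases, H2-D1 differed from H2-K1 at 24 positions, H2-Q10 at 31, H2-Q6 at 32, H2-Q7 at 33, H2-T23 at 36 and H2-M3 at 82. Among the heavy chain genes compared, H2-Q6 and H2-Q7, which encode the Qa-2 antigen, were the closest pair, with 19 differences and an identity of 93.0%. Only exons of 270 bases were compared, so H2-T22 and H2-T10, with exons of 261 bases, and H2-M1, with 267 bases, were left out. H2-Q4 and H2-T24 were absent too, because the search found no second coding exon of a like length for them. In contrast, H2-M10.5 differed from H2-K1 at 137 of the 270 positions. Exons were compared position by position without gaps, so insertions and deletions in distant genes would raise such counts.

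Mouse genes received 38845613 expected counts in replicate 1 and 38168674 in replicate 2, the reads per gene that the first quantification estimated. The 44 genes took 11090 and 10384 of them, a share of 0.0285% and 0.0272%. A count of 0 allows up to 3 counts, which equal 0.0772 and 0.0786 CPM (counts scaled to the mouse total of the library), and such limits cover counting error only. Heart markers were present as labelled, with 5 of 5 cardiomyocyte genes detected and a summed level of 24238 TPM in replicate 1 and 24111 TPM in replicate 2 (TPM is a level per transcript length). All 6 macrophage markers (summed 85.5 and 84.6 TPM) and 4 of 4 endothelial markers (151 and 135 TPM) were detected. Of 6 dendritic cell markers, Zbtb46, which endothelial cells also express, was the 1 detected (5.67 and 4.65 TPM, of summed 5.85 and 5.13 TPM). No B cell marker (4 listed, summed 1.49 and 1.65 TPM), no T cell marker (4 listed, summed 0.41 and 0.47 TPM, with Cd3g at 0) and no marker of thymus or liver (3 listed, Dntt and Foxn1 at 0) reached 1 TPM in both libraries. In bulk tissue, fewer cells of a type and less RNA per cell cannot be told apart.

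Of the 44 genes, 18 were detected, which here means at least 1 TPM in both libraries by the first quantification, against 50.4% of all genes with a protein-coding transcript. The second quantification detected 20, adding H2-Q7 and H2-DMb1. At the other end, 15 genes had at most 3 expected counts in each library: 11 of the 12 H2-M genes, H2-T3, H2-Bl, H2-Eb2 and H2-Oa. For 11 of those the first quantification listed 0 in both libraries, and 8 stood at 0 in both libraries and both quantifications. The 7 genes with the highest mean level were, in order, B2m, H2-Ke6, Tapbp, H2-D1, H2-K1, Cd74 and H2-T23. Within this order, H2-D1 and H2-K1 lay near to each other, 33.7 ± 3.03 and 28.0 ± 0.672 TPM (SD, n = 2), with no overlap between the values of the 2 libraries.

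**Figure D1:**
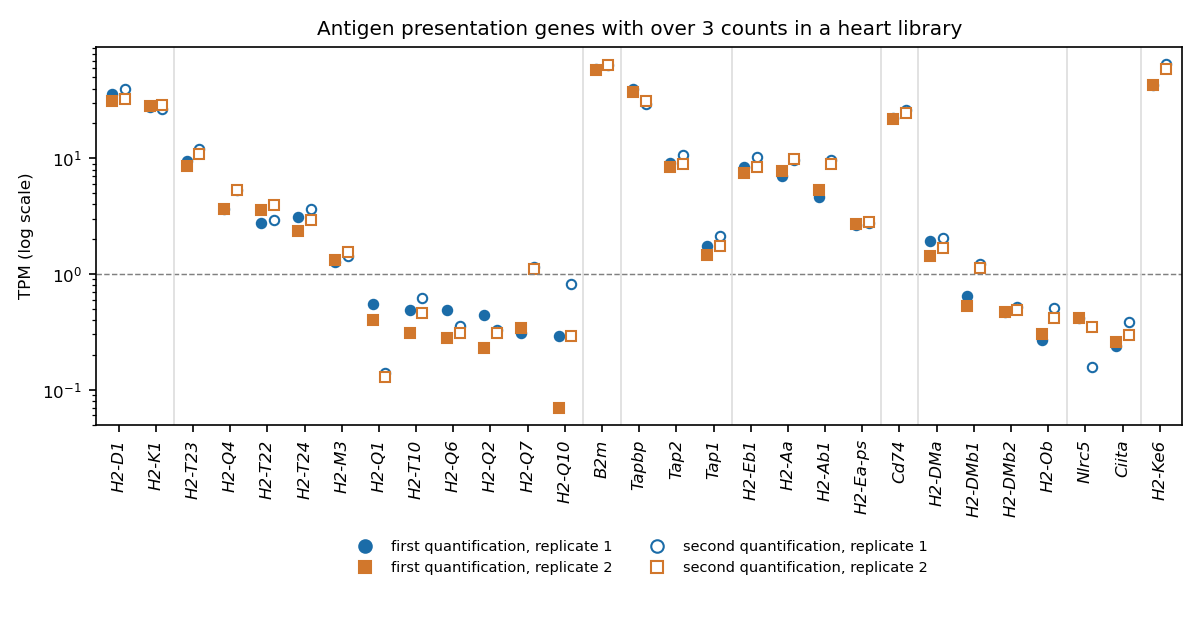
TPM of each of the genes with over 3 counts in at least 1 library, on a log scale, grouped by role from class I heavy chains at the left to H2-Ke6 at the right. Filled symbols are the first and open symbols the second quantification, circles replicate 1 and squares replicate 2, and the dashed line marks 1 TPM. B2m stands highest among the antigen presentation proteins at 59.6 and 58.45 TPM, and most H2-Q genes and both coactivators lie below the line.

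The classical class I genes H2-K1 and H2-D1, which encode the polymorphic molecules that present peptides to CD8 T cells, made up 73.7 ± 0.410% of the summed TPM of all 26 heavy chain genes. H2-K1 (chr17:33996017-34000347, minus strand) had 27.5 TPM in replicate 1 and 28.5 TPM in replicate 2 by the first quantification, and 26.7 and 29.0 TPM by the second. H2-D1 (chr17:35262730-35267499, plus strand) had 35.8 and 31.6 TPM by the first quantification and 39.6 and 32.7 TPM by the second. H2-D1 was thus the higher of the pair in both libraries and both quantifications, by a smaller margin in replicate 2. H2-K1 took 45.4 ± 2.82% of the pair's TPM by the first quantification and 43.6 ± 4.73% by the second. Its share of the pair's expected counts was 31.7 ± 0.569% by the first quantification, and of the estimated counts 35.1 ± 1.20% by the second. TPM, unlike a count, is a level per length, and the cause of the gap was not tested.

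The light chain gene B2m (chr2:122147686-122153083, plus strand) encodes beta 2 microglobulin, the invariant partner of every class I heavy chain. It had 59.6 and 58.45 TPM by the first quantification and 64.2 and 64.0 TPM by the second, and ranked 917th of 21901 genes by mean TPM. The summed heavy chains stood at 83.75 ± 3.66 TPM, 1.42 ± 0.0429 times the TPM of B2m. By the second quantification the ratio was 1.44 ± 0.0664, within the spread of the libraries. Over protein-coding transcripts alone the heavy chain sum was lower, 66.6 TPM by the first quantification. The 1 listed transcript of B2m is protein-coding, so its level stays the same on that basis.

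Among the non-classical class I genes, 5 of 24 were detected. H2-T23, which encodes Qa-1, the ligand of the CD94/NKG2 receptors of natural killer cells, was the highest with 9.44 and 8.54 TPM by the first quantification and 12.1 and 10.9 TPM by the second. It held 10.7 ± 0.291% of the heavy chain TPM. H2-Q4, which encodes the Qb-1 antigen, came next with 3.66 and 3.64 TPM by the first quantification and 5.31 and 5.37 TPM by the second. It made up 68.6 ± 6.81% of the summed TPM of the 6 H2-Q genes, and the other 5 H2-Q genes ranged between 0.07 and 0.55 TPM by the first quantification.

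H2-T22 and its close copy H2-T10 encode molecules that gamma delta T cells recognise without a bound peptide. H2-T22 had 2.77 and 3.59 TPM by the first quantification and 2.90 and 3.96 TPM by the second. H2-T10 had 0.49 and 0.31 TPM by the first, so H2-T22 held 88.5 ± 5.01% of the pair. H2-T24 had 3.14 and 2.35 TPM by the first quantification and 3.62 and 2.95 TPM by the second, ranges that overlap with those of H2-T22. H2-M3, which presents N-formylated peptides of bacteria and mitochondria, had 1.28 and 1.32 TPM by the first quantification, from 54 expected counts in each library, and 1.43 and 1.56 TPM by the second. It was the 1 H2-M gene with over 3 counts. The remaining 11 H2-M genes, among them the H2-M10 genes and H2-M1 and H2-M9 known from sensory neurons of the vomeronasal organ, had at most 3 counts in each library and quantification. H2-T3, known as the TL antigen of intestinal epithelium and thymocytes, was listed at 0 in both libraries by the first quantification and had 0 and 1.00 counts by the second.

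How far such values can be assigned to 1 gene depends on the sequence that genes share, measured as the percent of a gene's 31-base words, over all its annotated transcripts, that occur in a transcript of another gene. The median over the 26 heavy chain genes was 23.2%, with a range of 0.410% to 51.0%, against 0.829% over the other 18 genes of the set and 0.478% over all protein-coding genes. Over 10% of words were shared in 18 of the 26 heavy chain genes and in 3 of the other 18, against 20.9% of all protein-coding genes. H2-T22 and H2-T10 shared 1662 words, 47.2% of those of H2-T22 and 47.6% of those of H2-T10. H2-Q7 and H2-Q10 shared 973 words, 22.4% and 21.9% of the words of each, and H2-Q4 and H2-Q6 shared 505, 19.5% and 24.6%. H2-K1 and H2-D1 shared 358 words, 11.1% and 13.8%. B2m shared none. Levels of heavy chain genes that share many words are uncertain, because they depend on how each quantification divided reads between the copies.

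**Figure D2:**
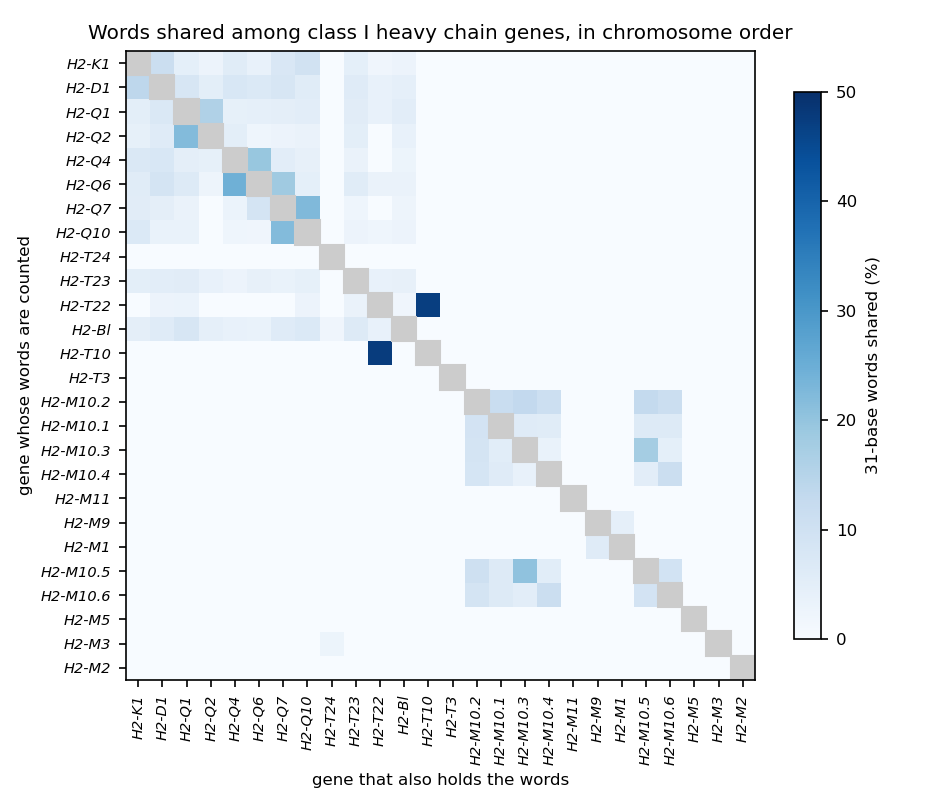
Percent of the 31-base words of each class I heavy chain gene (rows) that also occur in each of the other heavy chain genes (columns), in chromosome order, with grey on the diagonal. The darkest cells are H2-T22 with H2-T10, at 47.2% and 47.6%, and the genes from H2-K1 to H2-Q10, with H2-T23 and H2-Bl, form a block apart from that of the H2-M10 genes.

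Peptides reach class I molecules through the transporter of Tap1 and Tap2 and the chaperone tapasin, encoded by Tapbp, which bridges transporter and heavy chain. Tapbp (chr17:33915899-33929292, plus strand) had 39.5 and 37.1 TPM by the first quantification and 29.4 and 31.1 TPM by the second. Tap2 had 9.14 and 8.49 TPM by the first quantification and 10.61 and 8.98 TPM by the second. Tap1 had 1.76 and 1.46 TPM by the first and 2.14 and 1.75 TPM by the second. All 3 loading genes were detected, yet over all transcripts the subunits of the transporter were far apart. Tap1 held 15.4 ± 1.04% of the summed Tap1 and Tap2 TPM by the first quantification and 16.6 ± 0.319% by the second. The levels of Tapbp, Tap2 and Tap1 did not overlap. Most Tap2 TPM was assigned to a transcript annotated with a retained intron, described below, which bears on the share of Tap1. Over protein-coding transcripts alone the subunits lay nearer to each other. Tap1 then had 1.55 and 1.19 TPM and Tap2 2.06 and 2.36 TPM by the first quantification. By the second, Tap1 had 1.72 and 1.20 TPM and Tap2 4.59 and 3.79 TPM. The cause of the remaining gap was not tested. Tapbp overlaps Zbtb22 on the same strand over 3422 bases, and Tap1 overlaps Psmb9 on the opposite strand over 212 bases. The sources used here do not say whether counting used strand, so reads of such overlaps are uncertain.

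The summed classical class II level was lower than the summed class I level. Without H2-Ea-ps, given below, the 4 classical class II genes H2-Aa, H2-Ab1, H2-Eb1 and H2-Eb2 summed to 20.4 ± 0.382 TPM by the first quantification. The heavy chains of class I, without B2m, summed to 4.11 ± 0.257 times the level of these alpha and beta chains. By the second quantification the ratio was 3.26 ± 0.0242. With H2-Ea-ps the class II sum was 23.1 ± 0.403 TPM by the first quantification and 31.1 ± 1.56 TPM by the second. Over protein-coding transcripts alone the class II sum without H2-Ea-ps was 12.5 TPM and the heavy chain sum 66.6 TPM by the first quantification. H2-Aa, the alpha chain of the I-A molecule, had 6.98 and 7.84 TPM. Its partner H2-Ab1, the beta chain, had 4.66 and 5.35 TPM by the first quantification and 9.58 and 8.97 TPM by the second, where H2-Aa had 9.74 and 9.85 TPM. H2-Aa held 59.7 ± 0.372% of the TPM of the pair by the first quantification and 51.4 ± 1.36% by the second. Over protein-coding transcripts alone H2-Ab1 had 4.60 and 4.45 TPM by the first quantification and 5.01 and 5.16 TPM by the second. On the same basis H2-Aa had 6.97 and 7.81 TPM by the first and 9.44 and 9.52 TPM by the second, and was the higher in both. H2-Eb1, the beta chain of the I-E molecule, had 8.47 and 7.44 TPM by the first quantification and 10.16 and 8.38 TPM by the second. Its range overlapped with that of H2-Aa in both, but 92.9 ± 4.56% of its TPM by the first quantification and 87.7 ± 0.119% by the second lay on transcripts not annotated as protein-coding. H2-Eb2 had 0 and 2 counts.

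The alpha chain of I-E is encoded by H2-Ea-ps (chr17:34341959-34344645, minus strand). C57BL/6 mice are known to lack this chain, because a deletion removes the promoter of their gene. In the hybrid hearts, H2-Ea-ps had 75 and 74 expected counts by the first quantification and 63 and 62 by the second. Its level was 2.67 and 2.70 TPM by the first quantification and 2.77 and 2.80 TPM by the second, and it made up 25.3 ± 1.88% of the summed TPM of H2-Ea-ps and H2-Eb1. Over protein-coding transcripts alone the order of the pair turned: H2-Ea-ps then had 2.33 and 2.41 TPM and H2-Eb1 0.32 and 0.77 TPM by the first quantification, a share of 81.9% for H2-Ea-ps, and 2.77 and 2.80 TPM against 1.26 and 1.03 TPM by the second. H2-Ea-ps shared no 31-base word with another gene, and its deposited posterior SD was 0 counts in both libraries. From which parent's gene the reads came was not measured.

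Cd74, the invariant chain that guides class II molecules to the compartment where they are loaded, was the highest class II pathway gene of the 44, with 22.4 and 21.8 TPM by the first quantification and 26.3 and 24.8 TPM by the second. It stood at 1.79 ± 0.190 times the sum of H2-Aa and H2-Ab1 by the first quantification and 1.34 ± 0.0343 times by the second. The H2-DM molecule exchanges the invariant chain fragment for peptide, and H2-O inhibits it. H2-DMa had 1.92 and 1.44 TPM by the first quantification and 2.05 and 1.66 TPM by the second. By the first, H2-DMb1 had 0.65 and 0.53 TPM and H2-DMb2 0.47 and 0.47 TPM. H2-DMb1 and H2-DMb2 share 517 words, 31.4% and 29.7% of each. H2-Ob had 14 and 16 counts (0.27 and 0.30 TPM) and H2-Oa 2 and 0 counts. H2-DMa overlaps Brd2 on the opposite strand over 3094 bases, where Brd2 had 2760 and 2682 counts in all. All class II values stand beside detected markers of macrophages (6 of 6), endothelial cells (4 of 4), dendritic cells (1 of 6) and B cells (0 of 4), and the part of each cell type in them was not tested.

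Both transcription coactivators, Ciita for class II and Nlrc5 for class I genes, were below 1 TPM. Ciita had 39 and 32 counts (0.24 and 0.26 TPM), and overlaps Dexi, which had 460 and 484 counts, on the opposite strand over 25888 bases. Nlrc5 had 35 and 25 counts (0.42 and 0.42 TPM). H2-Ke6 lies in the MHC and carries its prefix but encodes a mitochondrial dehydrogenase (Hsd17b8) with no part in antigen presentation. It had 43.25 and 43.4 TPM by the first quantification and 65.1 and 58.8 TPM by the second, and 76.1% of its words occur in the overlapping gene Gm20427.

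Further genes of the pathway were taken from a list of 29, of which 28 symbols were found and 27 were detected. Their median level was 8.88 TPM. The highest was Calr, the chaperone calreticulin of the peptide-loading complex, with 174 and 122 TPM. The lowest was March1, a ubiquitin ligase that removes class II from the cell surface, with 0.56 and 0.42 TPM. It was also the 1 gene of the 28 past 1.5-fold between the libraries, at a log2 ratio of 0.64 of replicate 1 over replicate 2, against 4.44% of protein-coding genes compared, so the list was near that background. Between the quantifications 0 of the 28 passed 2-fold, against 1.46%. The immunoproteasome subunits Psmb8 (3.90 and 4.11 TPM), Psmb9 (1.87 and 2.69 TPM) and Psmb10 (24.7 and 22.9 TPM) were all detected. So were Rfx5 (2.45 and 2.35 TPM), Rfxap (8.92 and 8.35 TPM) and Rfxank (7.68 and 7.05 TPM), the subunits of the factor that recruits Ciita and Nlrc5 to MHC promoters, and each of them lay above both coactivators.

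Since the heavy chains are polymorphic between the parent strains, the quantifications were set against each other gene by gene as a log2 ratio of counts, first over second, with 0.5 added to each. Of the 21 genes of the set with at least 50 counts over both quantifications in each library, 1 passed 2-fold in the same direction in both libraries, against 1.46% of 12413 protein-coding genes in either direction. Of all those genes 0.556% had the higher count in the first quantification and 0.902% the lower. The median log2 ratio of the 21 genes was -0.08 in replicate 1 and -0.06 in replicate 2, against -0.08 and -0.09 over protein-coding genes. Both quantifications come from the same reads, so no test of their difference was made.

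The gene past 2-fold was H2-Q7. It had 25.0 and 16.8 counts by the first quantification and 66.4 and 64.9 counts by the second, which was 2.62 times and 3.78 times as many. Its counts in the first quantification alone lay below the minimum of 50. H2-Q7 thus entered the comparison through the second quantification, where it was the higher. Of the 12413 protein-coding genes compared, 99.2% and 99.4% had a higher ratio of first over second. H2-Q10, with which H2-Q7 shares words, had 17.45 and 5.22 counts by the first quantification and 49.6 and 22.4 counts by the second. H2-Q10 encodes a class I protein known as a secreted product of the liver. Its ratio pointed the same way, while that of H2-Q1 pointed the other way, with 32.3 and 22.4 counts by the first quantification and 8.26 and 9.50 by the second. Neither reached the count minimum. H2-Q6, the other Qa-2 gene, had 19.0 and 13.8 counts by the first quantification and 16.6 and 16.8 by the second, so H2-Q7 held 46.8 ± 11.4% of the TPM of the pair by the first and 77.2 ± 1.38% by the second.

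Beside H2-Q7, 3 other genes lay outside the range from the 5th to the 95th percentile of protein-coding genes in both libraries: B2m, H2-Ea-ps and H2-Q4. By definition part of all genes lies outside this range. The share of protein-coding genes outside it in both libraries was not counted, so no excess is read from these genes. B2m had 1425 and 1354 counts by the first quantification and 1098 and 1064 by the second, 1.30 times and 1.27 times as many in the first, a ratio that 2.11% of the protein-coding genes compared exceeded. H2-Ea-ps had log2 ratios of 0.25 and 0.25, and H2-Q4 of -0.36 and -0.38. B2m and H2-Ea-ps share no words with other genes, while H2-Q4 shares 38.4% of its words. H2-K1 had log2 ratios of -0.18 and -0.22 and H2-D1 of 0.01 and 0.02, both inside the range. In TPM the order for B2m was the opposite, 59.6 and 58.45 TPM by the first quantification against 64.2 and 64.0 TPM by the second.

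**Figure D3:**
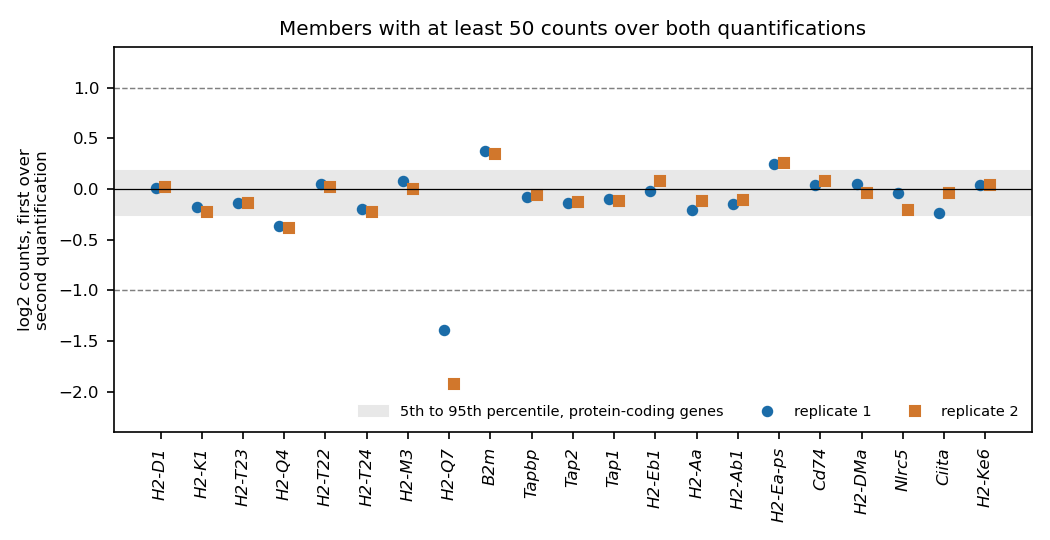
Log2 ratio of counts, first over second quantification, for the 21 genes with at least 50 counts, circles for replicate 1 and squares for replicate 2. The grey band spans the 5th to 95th percentile of protein-coding genes and the dashed lines mark 2-fold. H2-Q7 lies below the lower line at -1.39 and -1.92, and B2m above the band at 0.38 and 0.35.

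The transcripts of some genes of the set were divided differently by the quantifications. Among the 16 genes with a mean of at least 1 TPM and at least 2 listed transcripts, the leading transcript was the same in 12 and another in 4, which were H2-DMa, H2-K1, H2-T22 and Tapbp. The same share over all protein-coding genes was not counted, so the 4 are not read as a trait of this set. For H2-K1, the first quantification put 36.3% and 44.2% of the gene's TPM on H2-K1-215, a transcript of 457 bases annotated with a retained intron, which held 112 and 137 counts. The second quantification gave this transcript 0 counts in both libraries, and led with the protein-coding H2-K1-205 at 49.9% and 41.8%. With protein-coding transcripts alone, H2-K1 held 33.4% of the TPM of H2-K1 and H2-D1 by the first quantification. For Tapbp, the first quantification put 48.0% and 54.7% on Tapbp-206 and 35.4% and 28.1% on the 367-base Tapbp-208, while the second put 71.4% and 65.6% on Tapbp-201 and nothing on Tapbp-208.

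In other genes a transcript not annotated as protein-coding led in both quantifications. H2-Eb1-205, annotated for nonsense-mediated decay, took 75.9% and 64.4% of the TPM of H2-Eb1 by the first quantification and 71.1% and 76.7% by the second. The protein-coding H2-Eb1-203 took 3.78% and 10.35% by the first and 12.4% and 12.3% by the second. Tap2-202, annotated with a retained intron, took 77.5% and 72.2% of the TPM of Tap2 by the first quantification and 56.8% and 57.8% by the second. By contrast, the protein-coding H2-D1-202 led H2-D1 with 82.5% and 87.7% by the first quantification and 82.6% and 93.7% by the second.

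**Figure D4:**
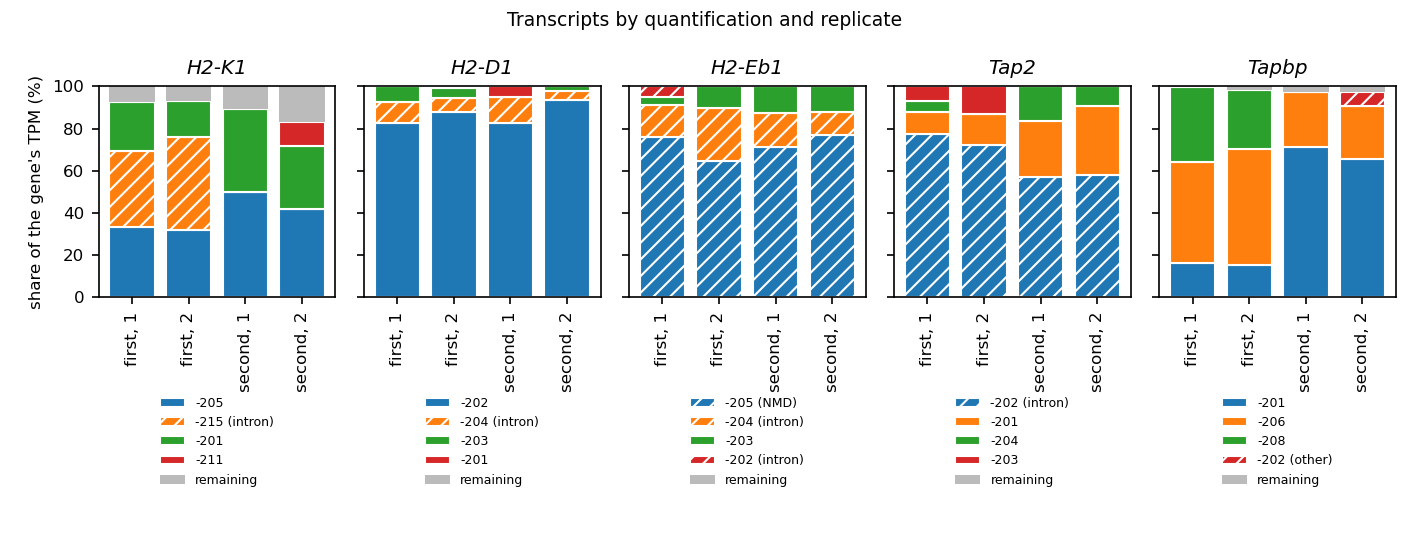
Share of each gene's TPM (%) held by its transcripts, in stacked bars for the first quantification (replicates 1 and 2) and the second (replicates 1 and 2). Hatched parts are transcripts not annotated as protein-coding (intron, retained intron; NMD, nonsense-mediated decay). H2-K1-215 appears in the first quantification alone, and H2-Eb1-205 and Tap2-202 lead their genes in all 4 bars.

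Between the animals the levels of these genes were close, as were those of most protein-coding genes. Counts of the first quantification were scaled to the mouse total of each library and compared as a log2 ratio of replicate 1 over replicate 2. The 21 genes compared, whose counts summed to 50 or more, hold H2-Q1 and not H2-Q7. Of these, 0 passed 1.5-fold, against 4.44% of 12477 protein-coding genes, so the set was near that background. The 4.44% divide into 3.25% with the higher value in replicate 1 and 1.19% with the lower. With 1 library per animal and 1 group the comparison carries no test. The median log2 ratio was 0.09 over the 21 genes and 0.08 over protein-coding genes. Of the 21, 15 were higher in replicate 1 and 6 lower, beside 68.0% of protein-coding genes that were higher in replicate 1, but 11 were higher with TMM scaling and 5 with spike-in scaling, which moved the median of protein-coding genes to 0.00 and -0.24.

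The ratios ran from -0.30 for H2-T22 to 0.52 for H2-DMa. H2-T22 had 149 and 180 counts, and its 95% interval, which is exact and covers counting error only, ran from -0.62 to 0.02. H2-DMa had 57 and 39 counts, with an interval from -0.09 to 1.15. For 2 genes the interval lay above 0: H2-D1, with 1957 and 1744 counts and a log2 ratio of 0.14 (0.05 to 0.23), and H2-T24, with 174 and 133 counts and 0.36 (0.03 to 0.70). Both intervals hold the median of protein-coding genes. The most deeply counted gene, Tapbp, with 2170 and 2126 counts, had a ratio of 0.00 (-0.08 to 0.09), and B2m 0.05 (-0.06 to 0.16).

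**Figure D5:**
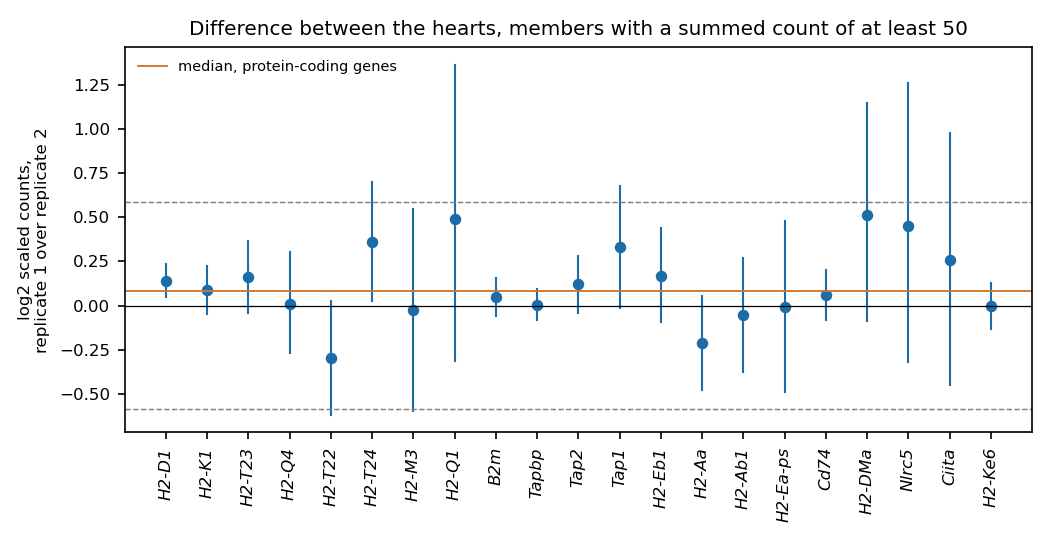
Log2 ratio of scaled counts, replicate 1 over replicate 2, with exact 95% counting intervals, for the 21 genes whose counts summed to 50 or more. The orange line is the median of protein-coding genes, 0.08, and the dashed lines mark 1.5-fold. All points lie between the dashed lines, and intervals are widest for the genes with fewest counts, such as H2-Q1 and Nlrc5.

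Promoters of MHC genes share short elements, and the 200 bases before the RefSeq start are printed for the classical class I pair, B2m and 2 class II genes, because these are the abundant polymorphic chains and their partner. Sequences are those of RefSeq on GRCm38.p6, 5′ to 3′ on the strand of the gene. Capitals mark strict matches on either strand to GAAA followed by any 2 bases and GAAA (interferon response element), and to GGGGATT followed directly by CCC (kappa B). They also mark ATTGG (Y box, an inverted CCAAT box), TGACG (core of the cyclic AMP response element, also an X2 box) and TGATGCA (X2 box of class II). Where matches overlap, as the pair of TGACG matches in H2-Aa, they form 1 capital run. Elements spelled otherwise are not marked, so lower case does not show that an element is absent.
H2-K1 (chr17:34000348-34000547, minus strand): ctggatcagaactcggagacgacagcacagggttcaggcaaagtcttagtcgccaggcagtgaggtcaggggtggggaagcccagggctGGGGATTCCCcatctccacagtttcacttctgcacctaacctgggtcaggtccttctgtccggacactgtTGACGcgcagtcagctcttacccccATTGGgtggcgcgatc
H2-D1 (chr17:35262894-35263093, plus strand): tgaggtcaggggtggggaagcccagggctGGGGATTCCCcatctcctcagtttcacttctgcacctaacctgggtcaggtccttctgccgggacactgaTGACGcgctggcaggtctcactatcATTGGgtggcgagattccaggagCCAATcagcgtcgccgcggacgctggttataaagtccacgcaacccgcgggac
B2m (chr2:122147487-122147686, plus strand): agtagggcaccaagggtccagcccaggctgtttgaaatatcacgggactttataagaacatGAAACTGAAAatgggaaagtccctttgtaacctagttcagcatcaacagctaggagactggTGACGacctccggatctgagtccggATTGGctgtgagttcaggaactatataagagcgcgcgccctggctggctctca
H2-Aa (chr17:34287824-34288023, minus strand): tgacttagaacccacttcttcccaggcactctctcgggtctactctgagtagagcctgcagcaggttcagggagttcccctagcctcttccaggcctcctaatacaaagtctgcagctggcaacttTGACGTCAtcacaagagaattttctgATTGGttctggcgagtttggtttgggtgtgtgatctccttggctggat
H2-Eb1 (chr17:34305667-34305866, plus strand): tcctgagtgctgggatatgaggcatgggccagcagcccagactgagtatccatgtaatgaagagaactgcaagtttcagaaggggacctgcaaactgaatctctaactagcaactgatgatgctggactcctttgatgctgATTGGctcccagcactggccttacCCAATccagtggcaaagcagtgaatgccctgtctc
In all, RefSeq promoters of 34 genes of the set were searched, with 37 entries, as H2-DMa, H2-K1 and H2-M9 have a pair each. The other genes of the set, Cd74 among them, were not searched, so the counts that follow do not cover them. The kappa B letters stood in 5 of the 37 entries, those of H2-D1, H2-K1, H2-Q6 and H2-Q7, against 0.067% of 32851 RefSeq promoters of the same length. The Y box letters stood in 32 of 37 entries, against 29.3%, and TGACG in 14, against 15.7%. The interferon response letters stood in 3, B2m, H2-T22 and H2-T23, against 2.27%, and TGATGCA in 2, H2-Ob and H2-T23, against 2.03%. The GC box letters GGGCGG, not capitalised here, stood in 3, H2-M10.4, Tap1 and Tapbp, against 31.05%. Promoters of the duplicated heavy chain genes are copies of each other, so these counts are not independent. H2-Q6 and H2-Q7 hold the kappa B letters of H2-K1 and H2-D1, at 0.49 and 0.28 TPM for H2-Q6 and 0.31 and 0.34 TPM for H2-Q7 by the first quantification, and 0.358 and 0.306 TPM for H2-Q6 and 1.15 and 1.10 TPM for H2-Q7 by the second. Matches of letters describe the sequence and show no binding.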

How the data were processed

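For each library both deposited sets of values were used. The authors deposited expected counts and TPM per gene and transcript (first quantification, with columns as RSEM writes them, per the file headers) and estimated counts and TPM per transcript (second quantification, with columns as kallisto writes them, per the file headers). Program names, their versions and the use of strand were not given in the sources used here. Counts are not normalized, and the authors scaled TPM per effective length and to a fixed sum. For the effective length the first quantification cut a median of 99 bases and the second 329 bases off transcripts over 1000 bases. The deposited posterior SD of counts and the credibility bounds of TPM were treated as a score of uncertainty and only the SD is printed. The build is mm10 with annotation M21.

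Gene symbols and transcript types were read from the transcript names of the second quantification and joined by gene identifier, and a gene counted as protein-coding where at least 1 of its transcripts is. Levels are means ± SD over n = 2. Detected means at least 1 TPM in both libraries. Comparisons between quantifications needed 50 counts over both, and between libraries a summed count of 50, with 0.5 added before log2 and exact 95% Clopper-Pearson intervals for the split of counts. No p-value was computed, since the labels give 1 group. Labels call the libraries biological replicates of separate animals, although both carry the same donor identifier. Word sharing used 31-base words of the GENCODE M21 transcripts. Spike-in rows and rows without a mouse gene were left out of library totals.

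Every gene of the set is accounted for. Those at a mean of at least 1 TPM or past a fold were to be named, with the highest, the lowest and those past a fold of the wider list; Psmb8, Psmb9, Psmb10, Rfx5, Rfxap and Rfxank of that list, and the lower members given with values, were named after their values were seen. The genes, lists and folds were chosen with earlier results of these data known. Alternatives were another TPM minimum, posterior means, the other quantification, other folds and scalings (TMM of edgeR 4.0.16 and spike-ins), no count minimum and leaving out a replicate. The ratios were checked on simulated counts, with changes larger than the folds used here, so calls near those folds were not checked. Python 3.11.15, numpy 2.4.6, pandas 2.3.3, scipy 1.17.1, matplotlib 3.10.9 and R 4.3.3 were used.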

Additional observations from a re-analysis of the deposited data

Results flagged for a closer look

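H2- genes without a protein-coding transcript lie outside the set described above, and 3 of them had more than the 3 counts that a count of 0 allows in both libraries. H2-T-ps, an unprocessed pseudogene, had 96.2 counts in replicate 1 and 74.76 in replicate 2 by the first quantification, and 101 and 83.1 by the second. Its level of 3.16 and 2.54 TPM by the first quantification overlaps with that of the coding genes H2-T22, at 2.77 and 3.59 TPM, and H2-T24, at 3.14 and 2.35 TPM. H2-K2, a transcribed unprocessed pseudogene, had 34.96 and 37.08 counts by the first quantification and 31.9 and 43.4 by the second. H2-Q5, a polymorphic pseudogene that shares 675 words with H2-Q7, had 4.63 and 4.73 counts by the first quantification and 11.4 and 9.50 by the second. The part of reads from the coding copies in these counts was not tested.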

How the results depend on the processing

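No paired analysis was possible because the 2 libraries form 1 group. The count of detected genes (18) lay between 18 and 20 under the alternatives run, and that of the wider list stayed at 27. Without a count minimum, 3 genes in place of 1 passed 2-fold between quantifications: H2-Q1, with more counts in the first, and H2-Q7 and H2-Q10, with fewer. Between libraries 0 genes passed 1.5-fold with library totals or TMM, 1 passed with spike-in scaling (H2-T22, lower in replicate 1), 1 by the second quantification (H2-Q10, higher in replicate 1) and 6 without a count minimum. Spike-in scaling moved the median of protein-coding genes to -0.24, against 0.08, and then 5 of the 21 genes were higher in replicate 1, against 15 with library totals and 11 with TMM. The summed heavy chain level of 83.75 TPM was 92.3 TPM by the second quantification, 98.5 as CPM and 66.6 TPM over protein-coding transcripts alone. The summed class II level without H2-Ea-ps, 20.4 TPM, was 28.4 TPM by the second quantification and 21.1 TPM as posterior mean. It was 16.4 as CPM and 12.5 TPM over protein-coding transcripts alone. The share of H2-K1 in the pair with H2-D1, 45.4%, was 31.7% in counts and 33.4% over protein-coding transcripts alone. That of H2-Ea-ps in the pair with H2-Eb1, 25.3%, was 81.9% over protein-coding transcripts alone. With no TPM minimum the same transcript led in 20 genes, against 12. Protein-coding transcripts alone were an alternative chosen after seeing the data. The cause of these moves was not tested beyond what each setting changes.

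Leaving out a replicate gave 18 to 18 detected genes, 27 to 27 of the wider list, 1 to 1 past 2-fold, 81.2 to 86.3 TPM of heavy chains, 20.1 to 20.65 TPM of class II, 43.4% to 47.4% for H2-K1 and 12 to 12 shared leading transcripts. Depth limits the genes under 50 counts, which include all H2-Q genes but H2-Q4, both H2-DMb genes, H2-Ob and H2-T10 in the first quantification of each library, and the F1 reads were not split by parent.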
